A study of Mus musculus with 78 samples.

Results

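The subject is the transcript level of the 3 NADPH-supplying enzymes glucose-6-phosphate dehydrogenase (G6PDX), transaldolase (TALDO1) and cytosolic malic enzyme (ME1) in mouse liver. They were taken by symbol from the 2755 genes of the count table, and all 3 were among the 2205 genes tested. The samples were liver sections of male B6C3F1 mice, formalin-fixed and paraffin-embedded, read by targeted RNA sequencing with TempO-Seq, 1 library per mouse. Treatment began at 4 weeks of age, and treated mice drank 3.5 g/L dichloroacetic acid (DCA), a drinking-water by-product that blocks pyruvate dehydrogenase kinase. Of 78 libraries the 68 that the authors kept were used, 46 from treated mice and 22 from controls. Group names end in the study week of collection. Control-10 (4 libraries), Control-32, Control-57 and Control-78 (6 each) had water alone. S1-10 had DCA for 10 weeks, and S1-32, S1-57 and S1-78 had 22, 47 or 68 weeks of water after the same 10 weeks (6 each). S2-32 (6) and S2-78 (4) had DCA for 32 weeks and then 0 or 46 weeks of water. S3-57 (5) and S3-78 (4) had it for 57 weeks and then 0 or 21 weeks of water, and Direct-78 (3) had it for all 78 weeks.

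NADPH carries the electrons that cells spend on building fatty acids and sterols and on keeping glutathione and thioredoxin reduced. In the liver cytosol much of it comes from the oxidative branch of the pentose phosphate pathway, which opens with glucose-6-phosphate dehydrogenase, and from malic enzyme, which turns malate into pyruvate and passes the electrons to NADP+. Transaldolase makes no NADPH itself. It belongs to the non-oxidative branch, which returns pentose phosphates to the sugars that the oxidative branch starts from, so the name of the set fits it through the pathway and not through its own reaction. Malic enzyme is a classic lipogenic enzyme of the fed liver, and the genes of all 3 enzymes are known targets of the oxidant-responsive factor NRF2.

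Total counts per library ran from 541245 to 4285848, with a median of 2162678. The 3 libraries of Direct-78 had the fewest counts, 699825, 541245 and 671116 (mice 64, 65 and 66), against 2098777 to 4285848 in Control-78, so low depth and continuous treatment cannot be told apart in that group. Levels are given as CPM, counts scaled to a common library total with TMM factors, and they compare samples within a gene, not genes with each other, since probes differ in yield. Hepatocyte markers were present throughout: of 10 written down 5 are on the panel, their most abundant gene was transthyretin (TTR), none of the 5 was at 0 in any library, and their sum ran from 14239 to 82098 CPM. The lowest sum was in mouse 68 of Control-10. Some libraries stood apart. Summed pancreatic acinar markers passed 1000 CPM in mouse 17 of S1-10 (4604), mouse 19 of S1-32 (3121), mouse 36 of S1-78 (21476) and mouse 47 of S2-78 (14737), against at most 679 elsewhere. Over the 68 libraries the median of AMY1, an amylase gene that liver also expresses, was 283 CPM, and the other 9 acinar genes had medians under 1. The squared Spearman correlation with the mean of the kept libraries was under 0.7 in mouse 75 of Control-32 (0.593), mice 64 and 66 of Direct-78 (0.685 and 0.611) and mouse 47 of S2-78 (0.675).

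In GRCm38 (GENCODE vM21) G6pdx lies on chromosome X at 74409483 to 74429194 on the minus strand with 13 exons, Taldo1 on chromosome 7 at 141392199 to 141402968 on the plus strand with 8 exons, and Me1 on chromosome 9 at 86581371 to 86695953 on the minus strand with 14 exons. A single-exon copy, G6pd2 on chromosome 5, is 93.1% identical to the main G6pdx transcript over 2331 aligned bases. Probe sequences were not used here, so whether the G6PDX count holds reads of the copy was not tested. The promoters below, from RefSeq on GRCm38.p6, span the start site over 300 bases each, 5′ to 3′ in the direction of the gene. All 3 members were found in that table, Me1 with 2 start sites, of which the one nearest the annotated gene start is given. They are shown because NRF2 is known to bind the antioxidant response element. Capitals mark its core letters, TGACNNNGC, sought on both strands.
G6pdx, chrX:74428831-74429130, minus strand: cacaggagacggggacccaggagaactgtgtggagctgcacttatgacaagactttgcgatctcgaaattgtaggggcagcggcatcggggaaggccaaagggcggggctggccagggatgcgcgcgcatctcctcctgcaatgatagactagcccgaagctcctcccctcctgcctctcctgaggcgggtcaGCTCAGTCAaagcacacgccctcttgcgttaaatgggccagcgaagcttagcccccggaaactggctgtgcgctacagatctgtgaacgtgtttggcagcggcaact
Taldo1, chr7:141391910-141392209, plus strand: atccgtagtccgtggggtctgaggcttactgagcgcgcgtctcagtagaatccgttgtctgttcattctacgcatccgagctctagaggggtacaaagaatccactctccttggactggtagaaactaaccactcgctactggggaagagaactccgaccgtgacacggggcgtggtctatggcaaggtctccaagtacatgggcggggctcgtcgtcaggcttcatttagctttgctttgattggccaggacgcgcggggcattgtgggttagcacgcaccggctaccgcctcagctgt
Me1, chr9:86695865-86696164, minus strand: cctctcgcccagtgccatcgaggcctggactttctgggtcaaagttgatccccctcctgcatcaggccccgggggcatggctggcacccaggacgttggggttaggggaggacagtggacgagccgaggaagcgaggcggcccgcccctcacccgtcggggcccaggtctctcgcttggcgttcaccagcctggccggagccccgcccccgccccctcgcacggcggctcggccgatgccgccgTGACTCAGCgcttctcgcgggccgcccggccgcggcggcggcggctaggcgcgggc
The core occurs in 12.39% of the 32851 mouse promoters of the same length. Me1 holds it as TGACTCAGC starting 6 bases before the start site, and G6pdx holds it on the opposite strand, read here as GCTCAGTCA, starting 57 bases before. These start sites are those of RefSeq, and by the gene bounds given above both matches lie inside the annotated genes. Taldo1 has no match in this window. Neither the E-box CACGTG (in 7.15% of promoters) nor the sterol response letters TCACNCCAC (in 1.24%) occurs in any of the 3. A match is a description of letters and not a bound site.

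ME1 was lower in 3 of 9 groups of DCA-treated livers than in controls of the same age, S1-32, S3-57 and S3-78, by 2.14, 3.49 and 3.70 times, and 4 further groups lay below 0 without passing the test. TALDO1 was lower in 1 of 9, Direct-78, by 1.94 times, and G6PDX differed in 0 of 9. A call (DEG) needed an edgeR quasi-likelihood p of 0.05 or less after Benjamini-Hochberg adjustment over the 2205 genes, and a fold change beyond 1.5, each treated group against the controls of its age. For G6PDX no unadjusted p of the 9 was under 0.05 and DESeq2 also called it in 0 of 9, while DESeq2 called TALDO1 in 0 and ME1 in 5. In those 5 groups DESeq2 also called more of the 2205 genes than edgeR did. The numbers were 241 against 121 in S1-10, 847 against 642 in S1-32 and 106 against 35 in S1-57. They were 222 against 141 in S3-57 and 404 against 294 in S3-78. By edgeR, 5.49% of all tested genes were DEGs in S1-10, 29.1% in S1-32, 1.59% in S1-57, 1.81% in S1-78 and 10.7% in S2-32. The same share was 1.63% in S2-78, 6.39% in S3-57, 13.3% in S3-78 and 24.4% in Direct-78. Groups collected in the same week share their controls, so their results are not independent of each other. Where libraries of 2 groups are said below not to overlap, the share of all genes that did likewise is not given. Such a separation describes the member and does not show that it was unusual. In bulk tissue, fewer cells of a type and less RNA per cell cannot be told apart.

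**Figure D1:**
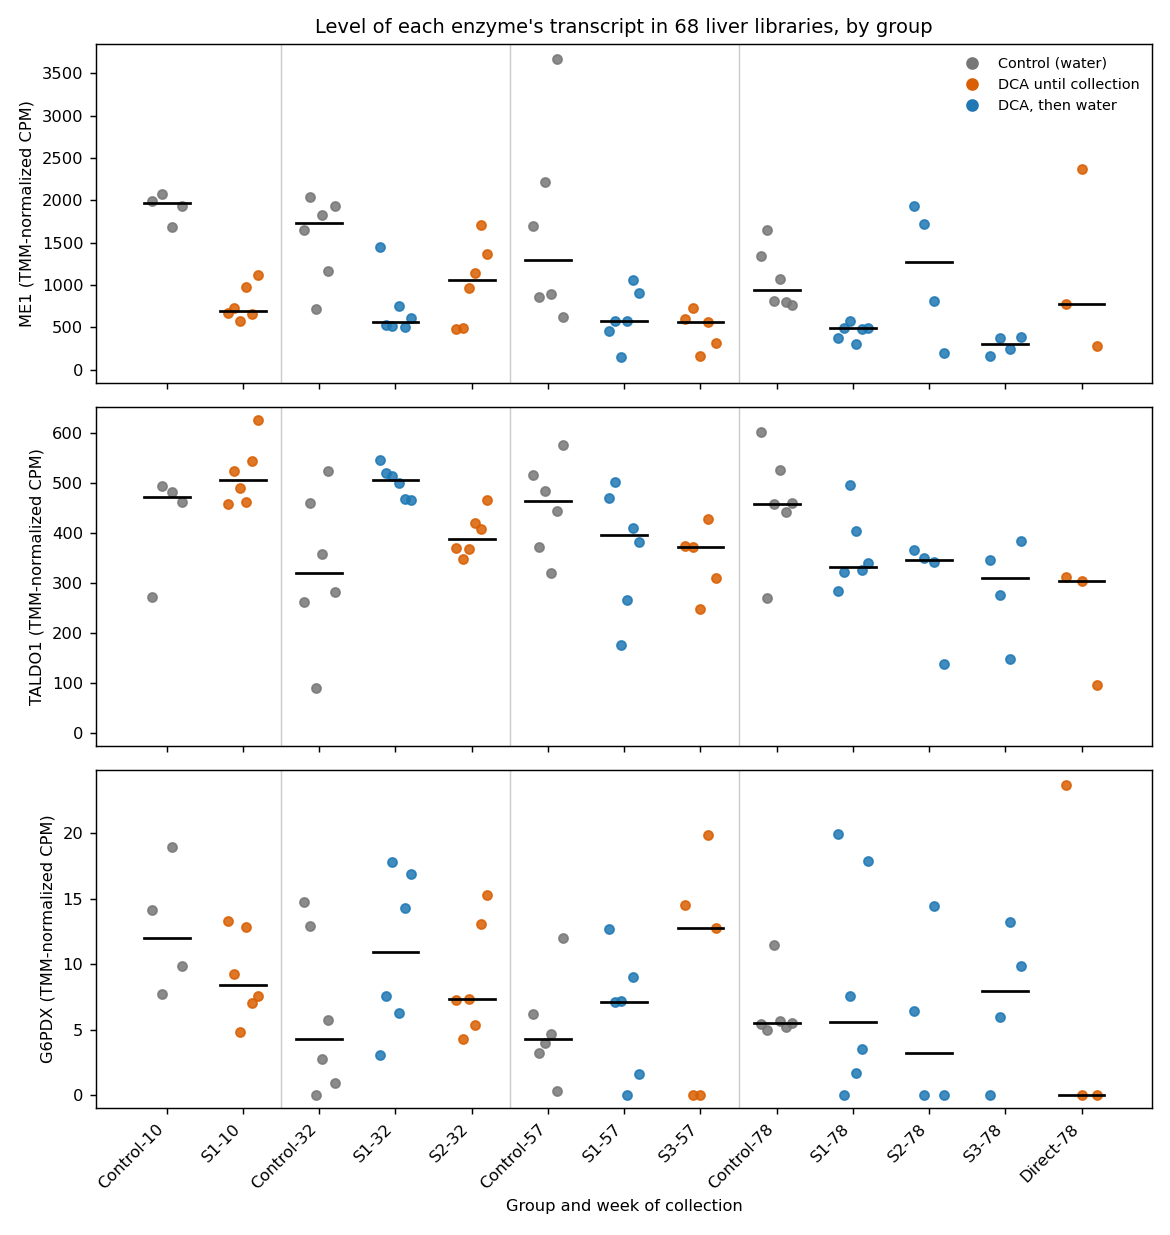
Each point is 1 of 68 liver libraries. The vertical axes give the TMM-normalized CPM of ME1 (top), TALDO1 (middle) and G6PDX (bottom), starting at 0, and the horizontal axis gives the 13 groups by week of collection; grey is water, orange is DCA until collection, blue is DCA followed by water, and black bars are medians. In the top panel the 4 libraries of S3-78 lie between 165 and 384, below the whole Control-78 range of 761 to 1654, and in the bottom panel G6PDX has 10 libraries at 0.

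ME1, which turns malate into pyruvate and makes NADPH, ranged from 154 to 3670 CPM over the 68 libraries (median 758). By group median, Control-10 stood highest at 1964, followed by Control-32 (1736), Control-57 (1298), S2-78 (1267), S2-32 (1055), Control-78 (947) and Direct-78 (774). Below them came S1-10 (699), S1-57 (576), S1-32 (569), S3-57 (567), S1-78 (490) and S3-78 (307). The libraries of every neighbouring pair in this order overlapped, 12 of 12 pairs, so the order of neighbours is not resolved beyond their spread. Control medians were lower at each later age, but no step between successive control ages was a call.

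After 10 weeks of DCA, ME1 lay below every control. The 4 libraries of Control-10 were at 1993, 2073, 1688 and 1936 CPM (mice 68, 69, 71 and 72), and the 6 of S1-10 ran from 573 through a median of 699 to 1124. No treated library reached the lowest control. The log2 fold change was -1.29 (SE 0.46, 95% interval -2.22 to -0.36), yet its adjusted p of 0.0876 did not pass the test. It did pass with RLE factors (-1.38, adjusted p = 0.0417), upper-quartile factors (-1.43, 0.0353), DESeq2 (-1.38, 0.0244), a fit of these 2 groups alone (-1.33, 0.0101), or without the libraries of low squared correlation (-1.30, 0.0379), among 12 alternatives whose adjusted p ran from 0.0101 to 0.365. Marker sums of other cells moved with these groups. Adipocyte markers (5 of 8 on the panel, FABP4 the most abundant, ADIPOQ at 0 in 59 of 68 libraries and LPL in 36) summed to 710, 101, 119 and 89.9 CPM in Control-10 and to 32.7 through 42.1 in S1-10. Hepatocyte markers summed to 14239 through 59691 in Control-10 and 60614 through 75551 in S1-10, erythroid markers to 43.0 through 201 and 281 through 400, and acinar markers to 44.8 through 184 and 366 through 4604. Their part in the ME1 values was not tested.

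At week 32, ME1 was lower in the mice that had stopped DCA 22 weeks earlier. Control-32 ran from 723 through a median of 1736 to 2041 CPM and S1-32 from 503 through 569 to 1454. All 6 S1-32 libraries lay under the control median and 4 lay under every control, while mouse 19, at 1454, sat inside the control range. The log2 fold change was -1.10 (SE 0.43, 95% interval -1.95 to -0.25, adjusted p = 0.0450), a DEG beside a median of 0.05 over all genes. The call was narrow. It was lost with all genes of at least 1 count (-1.002, adjusted p = 0.0664), all 78 libraries (-1.13, 0.235), the log2 total count as a covariate (-1.07, 0.250) or detected genes as one (-1.004, 0.0630), where adjusted p over the 12 alternatives ran from 0.00841 to 0.250. It was lost as well on leaving out any 1 of mice 20, 21, 22, 23 and 24 of S1-32 or mice 73, 74, 76 and 78 of Control-32, with log2 values of -1.11 to -1.004 and adjusted p of 0.0612 to 0.0774. S1-32 libraries were deeper than every Control-32 library (2979117 to 3914572 counts against 721372 to 2731045) and had higher macrophage sums (1293 to 1681 CPM against 484 to 1191, 6 of 13 markers on the panel, LYZ2 the most abundant). FABP4 (-1.57), CIDEC (-3.59) and CFD (-4.83) of the adipocyte list were also DEGs there, and the part of these cells was not tested. S2-32, still on DCA, ran from 487 through 1055 to 1712. Its ME1 values overlapped the controls, whereas its stellate and fibroblast marker sums did not (369 to 965 CPM against 89.7 to 278), and the log2 fold change of -0.60 (SE 0.42, 95% interval -1.44 to 0.25, adjusted p = 0.335) was not a call.

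At week 57 both treated groups were low, and the call fell on the mice still drinking DCA. ME1 in Control-57 ran from 623 through 1298 to 3670 CPM, and in S3-57 the 5 libraries were at 597, 733, 164, 567 and 319 (mice 49, 50, 51, 53 and 54). Every S3-57 library was under the control median and 4 were under all controls. The log2 fold change was -1.80 (SE 0.46, 95% interval -2.73 to -0.88, adjusted p = 0.0108). This call was lost without mouse 83, the highest control (-1.41, adjusted p = 0.0607), with all 78 libraries (-2.08, 0.118) and with these groups alone (-1.78, 0.0631), and it held in 10 of 12 alternatives, with adjusted p from 0.00107 to 0.118. S3-57 libraries were shallower than every Control-57 library (1123317 to 2030701 counts against 2223516 to 4153377), and with the log2 total count as a covariate the value was -1.83 (adjusted p = 0.0140). FABP4 was also a DEG there (-1.72), and its part was not tested. S1-57, on water for 47 weeks, ran from 154 through 576 to 1065, with 4 of 6 libraries under all controls. Its log2 fold change was -1.41 (SE 0.43, 95% interval -2.27 to -0.55, adjusted p = 0.0813), short of a call. That value passed with DESeq2 (-1.36, adjusted p = 0.0189), without the acinar libraries (-1.41, 0.0498), without the libraries of low squared correlation (-1.46, 0.0223), and without mouse 47 of S2-78 (-1.41, 0.0475), mouse 65 of Direct-78 (-1.44, 0.0442) or mouse 84 of Control-57 (-1.59, 0.0370); over its 12 alternatives adjusted p ran from 0.0189 to 0.716.

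At week 78 the lowest group median of ME1 in the series was in S3-78, mice with 57 weeks of DCA and 21 of water. Its 4 libraries were at 165, 370, 243 and 384 CPM (mice 55, 56, 59 and 60) against 761 through 947 to 1654 in Control-78. The groups did not overlap. The log2 fold change was -1.89 (SE 0.51, 95% interval -2.90 to -0.88, adjusted p = 0.00883), a 3.70-fold lower level, and it was a DEG in 12 of 12 alternatives (adjusted p from 0.00170 to 0.0317) and in 68 of 68 fits that left out 1 library (highest adjusted p 0.0492). Depth also separated these groups, 1154431 to 1936370 counts against 2098777 to 4285848, and with the log2 total count as a covariate the value was -1.92 (adjusted p = 0.0317). The erythroid marker sum was lower as well, 13.3 to 187 CPM against 314 to 867. It was carried by ALAS2 (median 259 CPM), with HBA-A1 at 0 in 21 of 68 libraries and HBB-BS in 16. That sum thus follows 1 gene and is a weak measure of erythroid cells. Genes of the acinar list, AMY1 included, summed to 35.5 through 312 against 391 through 658. Their part was not tested.

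In the other groups of week 78 ME1 was not a call. S1-78 ran from 308 through 490 to 582, under every control, with a log2 fold change of -1.24 (SE 0.43, 95% interval -2.09 to -0.38, adjusted p = 0.111). It became a call without the libraries of low squared correlation (-1.25, adjusted p = 0.0494), and over 12 alternatives adjusted p ran from 0.0494 to 0.763. Stellate and fibroblast markers also did not overlap there, at 154 to 1662 CPM against 63.98 to 153, and their part was not tested. S2-78 had libraries at 1934, 1716, 818 and 201 (mice 43, 44, 45 and 47). Its first 2 libraries lay above all controls and mouse 47, with acinar genes, below all of them, and the log2 fold change was 0.12 (SE 0.47, 95% interval -0.82 to 1.06, adjusted p = 0.939). Direct-78 was as divided, at 774, 2366 and 279 (mice 64, 65 and 66). Mouse 65 exceeded every control and mouse 66 fell short of every control. The log2 fold change was 0.08 (SE 0.51, 95% interval -0.95 to 1.11, adjusted p = 0.916), or -0.84 without mouse 65 (adjusted p = 0.275), so for 78 weeks of DCA the data leave the size and sign of an ME1 change unresolved.

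**Figure D2:**
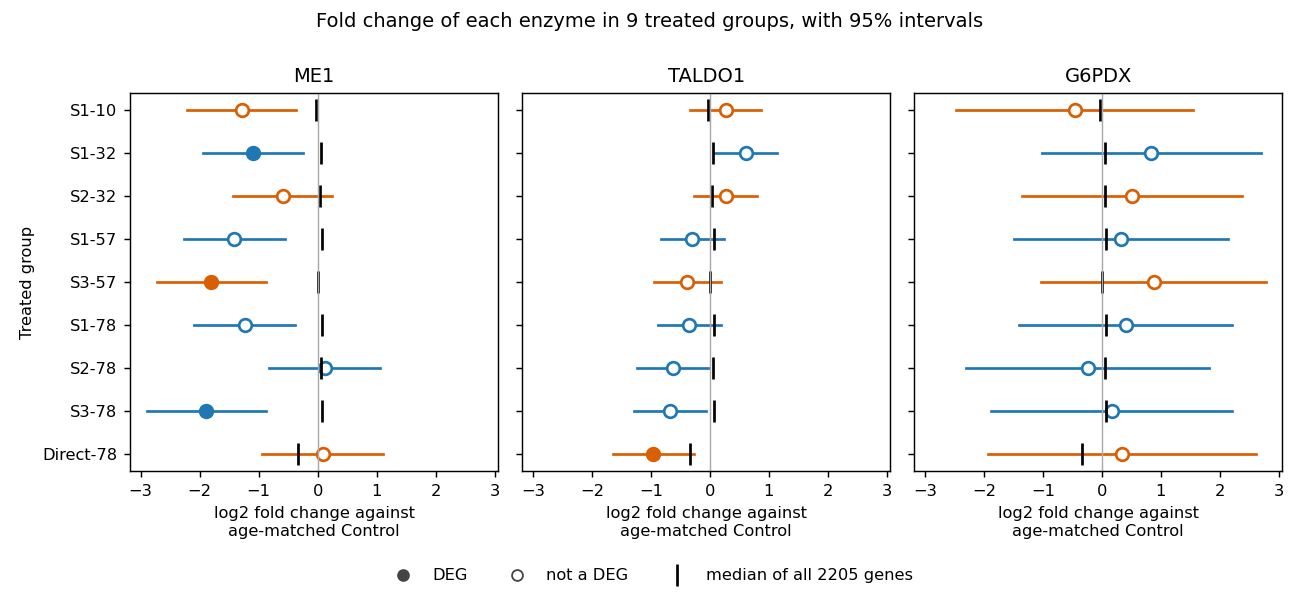
Each point is the log2 fold change of 1 treated group against the controls of its week (horizontal axis, the same scale in the 3 panels), with its 95% interval; filled points are DEGs, open points are not, and vertical ticks mark the median of all 2205 genes. Orange is DCA until collection and blue is DCA followed by water. ME1 lies left of the median tick in 7 of 9 groups, TALDO1 is filled in Direct-78 alone, and the G6PDX intervals all span 0.

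TALDO1, the transaldolase of the non-oxidative branch, varied less, from 88.5 to 625 CPM (median 404). Its highest group medians were those of S1-10 (506), S1-32 (506), Control-10 (472), Control-57 (464) and Control-78 (458). Then came S1-57 (395), S2-32 (387), S3-57 (371), S2-78 (346), S1-78 (332), Control-32 (318), S3-78 (310) and Direct-78 (303). Neighbours overlapped in 12 of 12 pairs. The lowest single values belonged to mouse 75 of Control-32 (88.5), mouse 66 of Direct-78 (94.5), mouse 47 of S2-78 (138), mouse 59 of S3-78 (147) and mouse 27 of S1-57 (176), and the first 3 of these are among the libraries of low squared correlation.

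TALDO1 was lower after 78 weeks of DCA, in a call that depends on the scaling. Direct-78 libraries were at 311, 303 and 94.5 CPM (mice 64, 65 and 66), and Control-78 ran from 270 through 458 to 602. All 3 treated libraries lay under the control median, mouse 66 under every control, and the ranges overlapped. The log2 fold change was -0.96 (SE 0.34, 95% interval -1.65 to -0.27, adjusted p = 0.0354), beside a median of -0.33 over all genes in the same comparison. RLE factors moved that median to 0.07 and left TALDO1 at -0.59 (adjusted p = 0.117), and the share of DEGs that were higher went from 23.4% to 46.3%. The call was also lost with upper-quartile factors (-0.53, adjusted p = 0.149), DESeq2 (-0.59, 0.0934) and the 2 groups alone (-0.89, 0.160). Leaving out the libraries of low squared correlation gave -0.57, with mouse 65 alone in Direct-78 and its spread taken from other groups. With the log2 total count as a covariate the value was 0.037 (adjusted p = 0.982), and over 12 alternatives adjusted p ran from 0.0210 to 0.982 with 6 calls.

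The TALDO1 call in Direct-78 also depended on which libraries were in the fit. Without mouse 66 the value was -0.54 (adjusted p = 0.285), and in Control-78 without mouse 85 it was -0.72 (0.104), without mouse 88 -0.88 (0.0518) and without mouse 90 -0.96 (0.0514). It was lost in 14 further fits that each left out a library of another group: mouse 68 of Control-10, 30 of S1-57, 35 and 36 of S1-78, 37, 38, 39 and 40 of S2-32, 44 of S2-78, 49, 50 and 51 of S3-57, and 55 and 56 of S3-78. In each of these TMM took mouse 71 of Control-10 in place of mouse 85 of Control-78 as its reference library, and the value was -0.81 (adjusted p from 0.0515 to 0.0593). Of 15 fits with that reference and value, the fit without mouse 59 of S3-78 kept the call (adjusted p = 0.0487). Leaving out mouse 85 of Control-78 also moved the reference to mouse 71 of Control-10. Leaving out mouse 66 or mouse 88 moved it to mouse 17 of S1-10. In those fits the lost library and the changed reference act together. Several library measures separated Direct-78 from Control-78 as well. Hepatocyte markers summed to 20432, 33434 and 29107 CPM against 37685 to 62401, erythroid markers to 65.1, 16.2 and 70.2 against 314 to 867, macrophage markers to 381, 558 and 319 against 570 to 2029, and acinar markers to 120, 257 and 64.8 against 391 to 658, and the part of these sums was not tested. Detected genes numbered 1750 to 2095 against 2355 to 2535, and with them as a covariate TALDO1 stayed a call (-1.11, adjusted p = 0.0327).

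In the other 8 groups TALDO1 was not a call, with values on both sides of 0. Early groups leaned higher: the log2 fold change was 0.27 in S1-10 (SE 0.30, adjusted p = 0.646), 0.61 in S1-32 (SE 0.27, adjusted p = 0.0747) and 0.27 in S2-32 (SE 0.27, adjusted p = 0.509). In S1-32 the libraries ran from 466 through 506 to 545 against 88.5 through 318 to 524 in Control-32, all 6 above the control median. That comparison became a call without mouse 74 (0.73, adjusted p = 0.0349) or mouse 77 of Control-32 (0.76, 0.0260). With RLE factors (0.57, 0.0460) and DESeq2 (0.57, 0.0315) it passed the adjusted p but not the fold change, and without the libraries of low squared correlation, which removes mouse 75, it was 0.38 (0.170). With the log2 total count as a covariate it was 0.25 (0.711). Later groups leaned lower, at -0.30 in S1-57 (adjusted p = 0.698), -0.35 in S1-78 (0.609), -0.38 in S3-57 (0.516), -0.62 in S2-78 (0.311) and -0.68 in S3-78 (0.128). S2-78 libraries were at 365, 350, 342 and 138 CPM (mice 43, 44, 45 and 47), and S3-78 libraries at 344, 275, 147 and 383 (mice 55, 56, 59 and 60). In both groups every library was under the Control-78 median and 1 was under all controls. S3-78 became a call without the libraries of low squared correlation, at the same value of -0.68 (adjusted p = 0.0311). With the log2 total count as a covariate the lower values shrank, to -0.13 in S1-57, -0.17 in S1-78, -0.0078 in S3-57, -0.18 in S2-78 and -0.16 in S3-78 (adjusted p = 0.837). S3-57 libraries, at 374, 371, 248, 427 and 310 CPM, were all under the median of Control-57, 464.

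**Figure D3:**
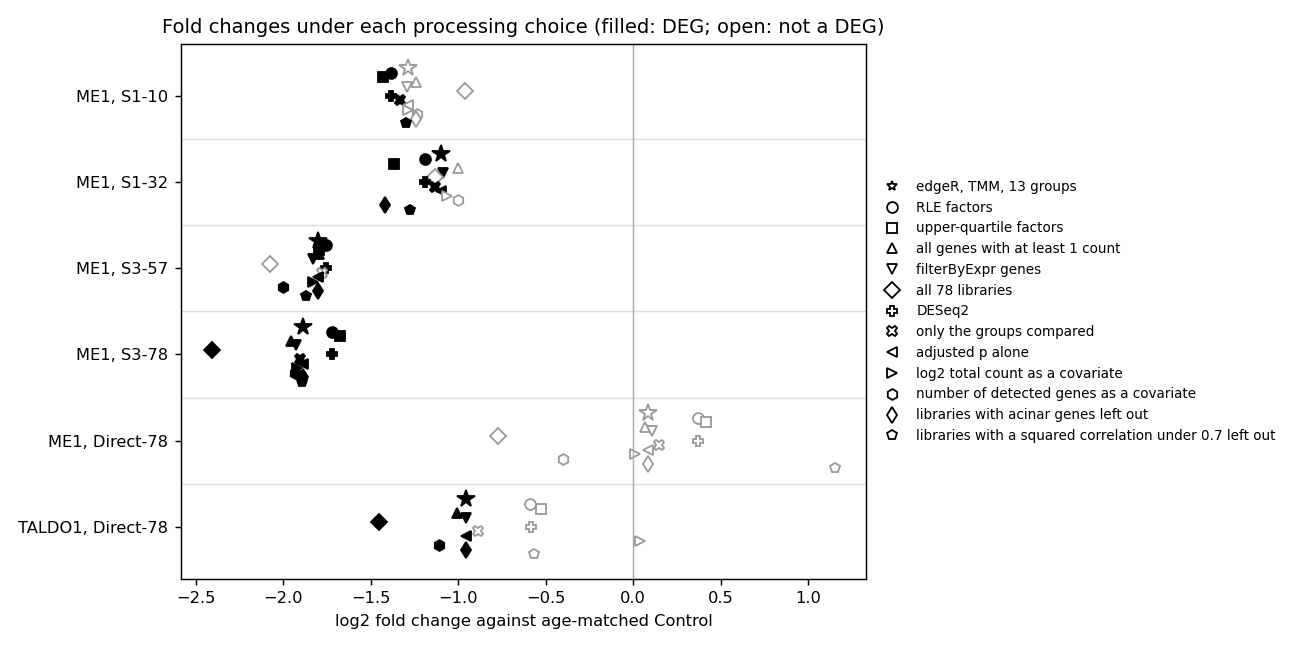
Log2 fold changes (horizontal axis) of ME1 in 5 treated groups and of TALDO1 in Direct-78, each under the fit used for the report (star) and 12 alternatives (other symbols); filled symbols are DEGs and open symbols are not. ME1 in S3-78 is filled throughout, from -2.41 to -1.68, while TALDO1 in Direct-78 spreads from -1.45 to 0.037 and is filled in 6 of 12 alternatives.

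G6PDX, which opens the oxidative branch, was barely counted. Its counts ran from 0 to 80 per library (median 16), 20 of 68 libraries had fewer than 10, and 10 had 0: mouse 75 of Control-32, 65 and 66 of Direct-78, 28 of S1-57, 32 of S1-78, 44 and 47 of S2-78, 50 and 51 of S3-57, and 55 of S3-78. Thus 9 of the 10 were treated mice, where treated mice gave 46 of 68 libraries. All 10 were also shallow, with 541245 to 2030701 total counts, under the median of 2162678 over the 68 libraries. Treatment and depth were not told apart in these zeros. A count of 0 allows up to 3 counts, which is 1.40 to 4.05 CPM in those libraries for counting error alone. CPM ran from 0 to 23.7 (median 7.06), and group medians from 12.8 in S3-57 and 12.0 in Control-10 through 10.96 in S1-32, 8.44 in S1-10, 7.93 in S3-78, 7.33 in S2-32, 7.15 in S1-57, 5.57 in S1-78, 5.52 in Control-78, 4.33 in Control-57, 4.27 in Control-32 and 3.21 in S2-78 to 0 in Direct-78. Neighbours overlapped in 12 of 12 pairs.

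No group separated from its controls in G6PDX. Direct-78 held the highest library of the series and 2 without a count, at 23.7, 0 and 0 CPM, against 5.00 through 5.52 to 11.5 in Control-78. S3-57 was split in the same way, at 14.5, 0, 0, 19.9 and 12.8 CPM, and Control-57 ran from 0.370 through 4.33 to 12.0. In S2-78 the libraries were at 6.42, 0, 14.4 and 0, and in S3-78 at 0, 5.98, 13.2 and 9.89. High and low libraries thus occurred within single groups, and each of these ranges overlapped its controls. Log2 fold changes ran from -0.46 in S1-10 to 0.88 in S3-57 (95% interval -1.03 to 2.78), through 0.84 in S1-32, 0.51 in S2-32, 0.40 in S1-78, 0.34 in Direct-78, 0.32 in S1-57, 0.17 in S3-78 and -0.24 in S2-78. Their SE of 0.91 to 1.13 means that a change even of 1 log2 unit in either direction was not detectable in these tests. Without mouse 64, Direct-78 has no count of G6PDX left, and the fitted value of -6.88 then depends on the prior count and bounds nothing.

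In untreated liver, no member was a call between successive ages. For ME1 the log2 fold change was -0.31 from week 10 to 32 (SE 0.47, adjusted p = 0.762), 0.09 from 32 to 57 (SE 0.42, 0.954) and -0.63 from 57 to 78 (SE 0.42, 0.999). For TALDO1 the same steps were -0.38, 0.46 and 0.02, and for G6PDX -1.04, -0.25 and 0.32. Of all genes 1.59% were DEGs at the first step, 0.00% at the second, where 188 genes had an unadjusted p under 0.05 and DESeq2 called 30, and 0.499% at the third. None of the 9 member tests had an unadjusted p under 0.05 or was called by DESeq2.

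Mice still on DCA were compared with mice of the same week that had stopped, at 3 time points. At week 32 (S2-32 against S1-32, 3.54% of genes DEGs) TALDO1 ran from 348 through 387 to 465 CPM with DCA and from 466 through 506 to 545 without it, so the 2 sets of 6 did not overlap. The log2 difference was nevertheless -0.34 (SE 0.27, 95% interval -0.88 to 0.19, adjusted p = 0.544) in a test that takes its spread from all 13 groups. It was a call in 0 of 12 alternatives (lowest adjusted p 0.0575). Endothelial, lymphocyte and macrophage marker sums also did not overlap there, at 173 to 278, 18.1 to 33.02 and 592 to 1068 CPM in S2-32 against 329 to 431, 37.3 to 88.3 and 1293 to 1681 in S1-32, and their part was not tested. ME1 differed by 0.50 (SE 0.42, adjusted p = 0.577) and G6PDX by -0.33 (SE 0.91, adjusted p = 0.899). By edgeR, by DESeq2 and at an unadjusted p under 0.05 the number of members called was 0. At week 57 (S3-57 against S1-57) edgeR called 0.00% of genes, 111 had an unadjusted p under 0.05 and DESeq2 called 7. There ME1 differed by -0.39, TALDO1 by -0.08 and G6PDX by 0.55, with none of the 3 members under an unadjusted p of 0.05 and none called by DESeq2.

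At week 78, ME1 was higher in Direct-78 than in S3-78, by 1.97 on the log2 scale (SE 0.56, 95% interval 0.85 to 3.09, adjusted p = 0.0265). In this comparison 5.03% of genes were DEGs, and 8 of the 111 were higher. The values behind it are those given above, 774, 2366 and 279 CPM against 165 to 384, so 2 of 3 libraries lay above all of S3-78 and mouse 66 lay among them. The call rests on mouse 65: without it the difference was 1.03 (adjusted p = 0.269). It was lost too without mouse 55 of S3-78 (1.84, 0.0746), with all 78 libraries (1.64, 0.357), with the 2 groups alone (1.97, 0.445), and with covariates for depth (1.93, 0.103) or for detected genes (1.54, 0.145), and adjusted p over 12 alternatives ran from 0.000773 to 0.445. Without the libraries of low squared correlation, which leaves mouse 65 as the sole library of Direct-78, it was 3.05, on the assumption that a lone library varies like those of other groups. TALDO1 (-0.28, adjusted p = 0.735) and G6PDX (0.17, adjusted p = 0.960) were not calls. Depth did not overlap between these groups either, 541245 to 699825 against 1154431 to 1936370 counts.

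Whether a change itself differed with duration or after withdrawal was tested as the difference between 2 changes, each against its own controls, called at the adjusted p alone. Between Direct-78 and S1-10, where 33.8% of genes differed, TALDO1 differed by -1.23 (SE 0.46, 95% interval -2.14 to -0.32, adjusted p = 0.0316). S1-10 libraries ran from 458 through 506 to 625 CPM against 272, 493, 482 and 462 in Control-10 (mice 68, 69, 71 and 72), while Direct-78 lay under its control median. This call shares the dependence on scaling: it was lost with RLE factors (-0.80, adjusted p = 0.0912), upper-quartile factors (-0.69, 0.139), DESeq2 (-0.80, 0.0734), these groups alone (-1.09, 0.0564) and the log2 total count as a covariate (-0.22, 0.913). Leaving out the libraries of low squared correlation gave -0.83, with mouse 65 alone in Direct-78 and its spread taken from other groups. Adjusted p ran from 0.0143 to 0.913 over 12 alternatives. The call was lost too without mouse 66 of Direct-78 (-0.78, 0.171), mouse 68 of Control-10 (-0.93, 0.118) or mouse 85 of Control-78 (-0.97, 0.0736). Each of these removals also changed the TMM reference library. The median over all genes was -0.35, or 0.14 with RLE factors.

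ME1 differed between the same changes by 1.37 (SE 0.69, 95% interval -0.0015 to 2.74, adjusted p = 0.111), which was not a call. It became one with RLE factors (1.75, adjusted p = 0.0304), upper-quartile factors (1.85, 0.0236), DESeq2 (1.75, 0.0241) and without mouse 66 (1.90, 0.0352). Without the libraries of low squared correlation, where Direct-78 is mouse 65 alone and its spread is taken from other groups, the value was 2.45. The difference fell as low as 0.19 among 12 alternatives, whose adjusted p reached 0.875, and as low as 0.49 on leaving out 1 library. After withdrawal the ME1 change differed by 0.19 (SE 0.63) between S1-32 and S1-10, by 0.71 (SE 0.63) between S2-78 and S2-32 and by -0.09 (SE 0.65) between S3-78 and S3-57. The 95% intervals were -1.07 to 1.45, -0.55 to 1.97 and -1.38 to 1.21, so how much of an ME1 change came back after DCA was stopped was not resolved, although in S3-78 ME1 was still below its controls 21 weeks after the end of DCA. For TALDO1 those differences were 0.34, -0.89 (unadjusted p = 0.0324, adjusted p = 0.227) and -0.29, and for G6PDX 1.30, -0.74 and -0.71. No member was called in these 3 tests by edgeR or DESeq2. Among all genes edgeR called 0.00% in the first (220 at an unadjusted p under 0.05, 16 by DESeq2), 0.499% in the second, and 0.00% in the third (162 and 1).

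Of 21 other genes of NADPH supply and the pentose phosphate pathway written down, 4 are on the panel. A place on that list does not mean that an enzyme makes NADPH itself, so these calls are not read as changes in NADPH production. RPIA, the ribose phosphate isomerase of the non-oxidative branch, was lower in S1-32 (-2.28, adjusted p = 0.00558), a call in each of 68 fits that left out 1 library. MTHFD1L, a mitochondrial folate enzyme, was lower there too (-2.37, 0.0455), in 60 of the 68. It was also lower in S1-10 (-5.10, 0.00489, with counts of 0 to 8 in the 6 libraries), but without mouse 68 of Control-10, the library with the lowest hepatocyte sum, the value was -1.87 (0.635). ME2, the mitochondrial malic enzyme, and MTHFD2 were not called in any of the 9 groups. Of all genes 29.1% were DEGs in S1-32 and 5.49% in S1-10. In S1-32 the 4 went both ways: mean CPM was higher than in Control-32 for ME2 (6.49 against 2.04) and MTHFD2 (27.4 against 22.8). Their median there, -1.02 beside 0.05 over all genes, thus describes no shared shift. In Direct-78 the median of the 4 was 1.40 beside -0.33 with no call, and each of the 4 lay above 0. Counts in its 3 shallow libraries were low, 12 to 47 for RPIA, 0 to 9 for ME2, 65 to 100 for MTHFD1L and 11 to 33 for MTHFD2. The part of depth was not tested.

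Fatty acid and sterol synthesis use NADPH, though not at every step. Of 12 such genes, 4 were higher in S1-32, the sterol enzymes CYP51 (1.83), DHCR7 (1.86) and LSS (2.78) and the citrate lyase ACLY (1.60), each in 68 of 68 fits without 1 library, and the fatty acid synthase FASN was lower (-1.82), though not without mouse 75 of Control-32 (-1.57, adjusted p = 0.0519). Of all genes 29.1% were DEGs in that group. LSS, ACLY and FASN were chosen after their values were seen. In S3-78, where the ME1 median was lowest and 13.3% of genes were DEGs, ELOVL3 (-3.83) and MVD (-2.47) were lower, in 62 and 64 of the 68 fits, and none was higher. In Direct-78, with 24.4% of genes DEGs, CYP51 (-2.13), DHCR7 (-1.96), MVD (-2.63) and the elongase ELOVL3 (-9.37, with 2 of 3 libraries at 0 and the third at 6 counts) were lower, with a list median of -1.45 beside -0.33 over all genes, and MVD was not a call with RLE factors (-2.32, adjusted p = 0.0577). ELOVL3 held in 68 of 68 fits without 1 library, CYP51 was lost without mouse 64 (-1.73, 0.0598), DHCR7 without mouse 66, and MVD without any 1 of mice 64, 66, 85 and 90. The list had 0 calls by edgeR in S1-10, S1-57, S1-78, S2-32, S2-78 and S3-57.

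Among 12 NADPH-using reductases, 4 were higher in both S3-78 and Direct-78, where 13.3% and 24.4% of all genes were DEGs: CBR3 (2.79 and 2.15), AKR1B10 (2.34 and 2.54), CBR1 (1.38 and 1.63) and NQO1 (2.53 and 2.28), the last named after its values were seen. Of these calls that of CBR1 in Direct-78 held in 68 of 68 fits without 1 library, and each of the others was lost without some library of the groups compared: CBR3 in S3-78 was 1.13 without mouse 59 (adjusted p = 0.397). In S1-32 (29.1% of all genes) the calls were all lower, AKR7A5 (-1.27), AKR1B10 (-1.72, 60 of 68 fits), TXNRD1 (-1.02) and CRYZ (-1.26), the last also lower in S2-32 (-1.31), and TXNRD1 and CRYZ were chosen after their values were seen. AKR7A5 was lower in S2-78 (-1.45, beside 1.63% of all genes) and S3-78 (-1.17) as well, the latter not without mouse 59 (-0.94, adjusted p = 0.0708). CBR3 and CBR1 were lower in S1-10 (-4.13 and -1.84), and both calls were lost without mouse 68 of Control-10 (-1.59 and -1.38, adjusted p = 0.476 and 0.250).

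Of 14 tested genes of the NRF2 list outside NADPH supply, which holds the factor itself (NFE2L2), its repressor KEAP1 and known targets, 0 were higher in any of the 9 groups by edgeR. NQO1, CBR1, CBR3 and AKR1B10, reported NRF2 targets as well, are counted with the reductases above and were higher in S3-78 and Direct-78. Lower were 3 of the 14 in S1-10 (5.49% of all genes were DEGs), 3 in S1-32 (29.1%), 1 in S1-78 (1.81%), 1 in S2-32 (10.7%), 1 in S3-57 (6.39%), 4 in S3-78 (13.3%) and 4 in Direct-78 (24.4%), and with RLE factors Direct-78 had 3 lower and 1 higher. KEAP1, chosen after its values were seen, was 1 of those lower in S3-78 (-0.88) and Direct-78 (-1.19). Its Direct-78 call was lost without mouse 64 (-0.79, adjusted p = 0.107), and its S3-78 call without any 1 of mice 59, 60, 87 and 90. PRDX1 was lower in S3-57 (-1.11), S3-78 (-1.48) and Direct-78 (-1.34), in 68 of 68 fits without 1 library each, and ME1 was a DEG in the first 2 of these groups. UGDH was lower in S1-32 (-2.88, 68 of 68) and S2-32 (-2.36, 66 of 68), and GSTA2 in S1-32 (-2.15, 64 of 68). In S1-10 both were lower (-3.35 and -2.89) but not without mouse 68 of Control-10 (-1.66 and -1.84, adjusted p = 0.454 and 0.455), and the third call of that group, EPHX1 (-1.83), chosen after its values were seen, was lost without it too (-1.30, 0.341). SRXN1 was lower in S1-78 (-2.89), S3-78 (-2.77) and Direct-78 (-3.67), and all 3 calls were lost without mouse 90 of Control-78 (-1.14, -1.01 and -1.91).

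Among 6 regulators of lipogenic genes, INSIG1, which holds back the sterol-sensing SREBP factors, was higher in S1-10 (1.52), S1-32 (1.59) and S2-32 (1.23) and lower in S3-78 (-1.52) and Direct-78 (-2.10). These calls held in 65, 68, 66, 68 and 68 of 68 fits without 1 library, in groups where 5.49%, 29.1%, 10.7%, 13.3% and 24.4% of all genes were DEGs. The nuclear receptor NR1H2 was higher in S1-32 (1.48, 66 of 68). Of 10 neighbours in glucose and pyruvate metabolism, 3 were DEGs in S1-32, 2 in S2-32 and 2 in Direct-78, beside 29.1%, 10.7% and 24.4% of all genes. The aldolase ALDOA was lower in S1-32 (-2.30) and, in 45 of 68 fits, in S2-32 (-1.31), where ME1 was not a call. PGAM1 was lower in S1-32 (-1.44) and PFKL higher in Direct-78 (1.32, 65 of 68). Citrate synthase (CS) was higher in S1-32 (1.08, 68 of 68) and S2-32 (0.93, 61 of 68) and lower in Direct-78 (-1.01, 42 of 68), the last lost with RLE factors (-0.65, adjusted p = 0.139).

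**Figure D4:**
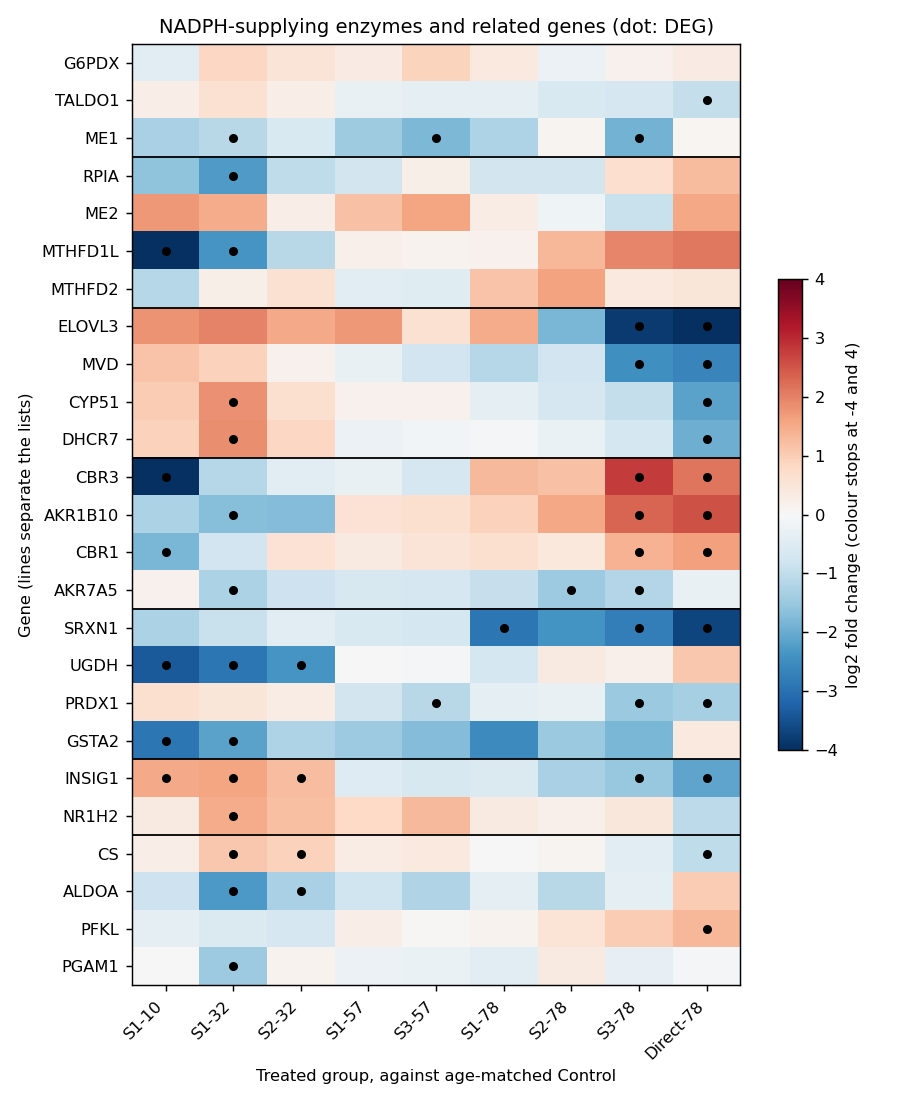
Rows are the 3 enzymes and related genes, with lines between the lists, and columns are the 9 treated groups. Colour is the log2 fold change against the controls of the same week (red higher, blue lower, ending at -4 and 4), and dots are DEGs. The ME1 row is blue in 7 of 9 columns with 3 dots, while the lipid synthesis block has red dots in S1-32 and blue dots in S3-78 and Direct-78. FASN of the lipid synthesis list was a DEG in the other direction in S1-32, lower at -1.82.

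ME1 did not share its profile over the groups with the other 2 enzymes. Over the 13 group means of log2(CPM + 1), Pearson's r was 0.19 between ME1 and G6PDX, 0.25 between ME1 and TALDO1 and 0.80 between TALDO1 and G6PDX, where the points share libraries and depth and G6PDX is thinly counted. The genes most like ME1 were DECR1 (r = 0.89), EPHX2 (0.86) and ETFB (0.86), and each was a DEG in S3-57 and S3-78, as ME1 was. DECR1 was at -1.75 and -2.39 in these groups, EPHX2 at -1.08 and -1.21, and ETFB at -0.76 and -0.89, and the calls in S3-57 held in 66, 39 and 44 of 68 fits without 1 library. TALDO1 was most like GSTM2 (r = 0.98), CYP2E1 (0.98) and SLC25A13 (0.95), of which SLC25A13 was lower in S3-78 (-1.54, 61 of 68 fits) and Direct-78 (-1.67, 63 of 68). CYP2E1 is also 1 of the hepatocyte markers used here. For G6PDX they were GM3258 (r = 0.90), DDX10 (0.90) and JUN (0.90). These genes were picked from 2205 for their likeness, so the values of r and the calls they share with ME1 or TALDO1 describe the choice.

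**Figure D5:**
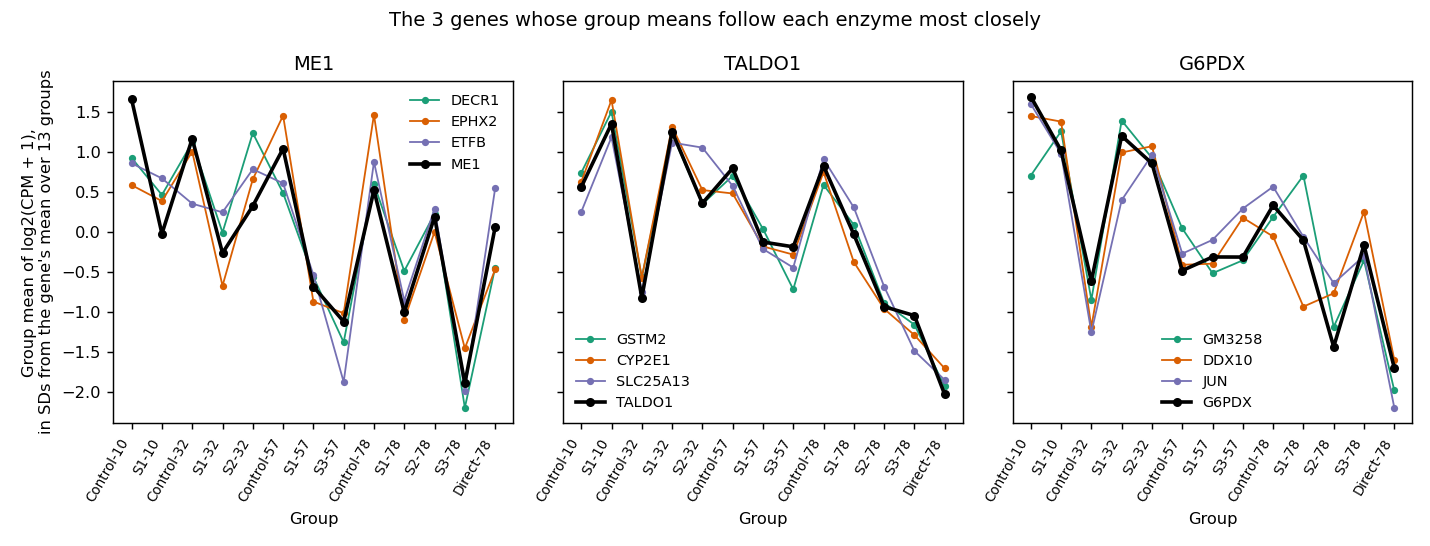
For each enzyme (black) and the 3 genes whose group means follow it most closely (colours), the vertical axis gives the group mean of log2(CPM + 1) in SDs from the mean over the 13 groups, which are along the horizontal axis. ME1 and its 3 genes are lowest in S3-78, and TALDO1 and its 3 genes are lowest in Direct-78.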

How the data were processed

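Counts are raw reads per probed gene as deposited. Libraries were sequenced at BioSpyder, TempO-Seq reads were matched to the probed genes, and the authors were given the counts. The authors also deposited a signal from Partek Flow 10.0.22.0524, count plus 1 over a median-ratio factor, whose tables set the 68 libraries and 2205 genes used here, and 10 libraries they had left out enter as an alternative. Counts were fitted in R 4.3.3 with edgeR 4.0.16 (TMM, 1 quasi-likelihood model, 13 groups, 2-sided tests), tested on simulated data. Alternatives were scaling, gene filter, libraries, DESeq2 1.42.0, covariates and each library left out, the last for list genes too after seeing the data. Tables used Python 3.11.15, and blastn 2.17.0 aligned the G6pd2 transcript. The 3 members and all gene lists were chosen with earlier results of these data known. Named genes were the members and every tested gene of the list of other NADPH supply and pentose phosphate pathway genes. Added to these were up to 4 genes per other list that were DEGs in the most groups, and the 3 genes most like each member. The text marks the remaining ones as chosen after their values were seen. A gene taken off 1 list is not reported here. Intervals are 95%, and floors of 3 counts cover counting error alone.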

Additional observations from a re-analysis of the deposited data

Results flagged for a closer look

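Among 36 pairs of an enzyme and a group of 4 to 6 libraries, 4 held a library far from the others, measured by its gap to the nearest library as a share of the group's range and compared with Dixon's 95% critical value; chance alone gives about 1 in 20. G6PDX in mouse 87 of Control-78 was at 11.5 CPM, a share of 0.893. TALDO1 in mouse 68 of Control-10 was at 272 CPM (a share of 0.858), and this mouse had the lowest hepatocyte marker sum. In mouse 47 of S2-78 TALDO1 was at 138 CPM (0.899), in a library that also held acinar genes and a low squared correlation. ME1 in mouse 19 of S1-32 was at 1454 CPM (0.736), again in a library with acinar genes. The TALDO1 change differed between Direct-78 and S1-10 by -1.23 on the log2 scale (adjusted p = 0.0316), by a test of the difference itself.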

How the results depend on the processing

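Of 60 results, counts of groups and log2 fold changes, each kept its direction and its side of the threshold with the adjusted p alone as the rule and with edgeR's own filter on low counts. Limits beyond these values are the depth of Direct-78 and the low counts of G6PDX. The alternatives without acinar libraries and without libraries of low squared correlation were chosen after seeing the data, and the second leaves mouse 65 alone in Direct-78. The spread for that library is then taken from other groups. Direct-78 less S1-10 means the difference of their changes, and the cause of each shift listed here was not tested. With RLE factors, TALDO1 was a DEG in 0 of 9 groups, and calls were lost for TALDO1 in Direct-78 (-0.59) and TALDO1 in Direct-78 less S1-10 (-0.80). Calls were gained with RLE factors for ME1 in S1-10 (-1.38) and ME1 in Direct-78 less S1-10 (1.75). Signs turned with RLE factors for TALDO1 in Control-78 against Control-57 (-0.013), ME1 in Control-57 against Control-32 (-0.071) and ME1 in S3-78 less S3-57 (0.032). With upper-quartile factors, TALDO1 was a DEG in 0 of 9 groups, and calls were lost for TALDO1 in Direct-78 (-0.53) and TALDO1 in Direct-78 less S1-10 (-0.69). Calls were gained with upper-quartile factors for ME1 in S1-10 (-1.43) and ME1 in Direct-78 less S1-10 (1.85). Signs turned with upper-quartile factors for TALDO1 in Control-78 against Control-57 (-0.045), ME1 in Control-57 against Control-32 (-0.12) and ME1 in S3-78 less S3-57 (0.12). With DESeq2, TALDO1 was a DEG in 0 of 9 groups and ME1 was a DEG in 5 of 9 groups, and calls were lost for TALDO1 in Direct-78 (-0.59) and TALDO1 in Direct-78 less S1-10 (-0.80). Calls were gained with DESeq2 for ME1 in S1-10 (-1.38), ME1 in S1-57 (-1.36) and ME1 in Direct-78 less S1-10 (1.75). Signs turned with DESeq2 for TALDO1 in Control-78 against Control-57 (-0.013), ME1 in Control-57 against Control-32 (-0.071) and ME1 in S3-78 less S3-57 (0.032). Fitting the compared groups alone, TALDO1 was a DEG in 0 of 9 groups, and calls were lost for TALDO1 in Direct-78 (-0.89), TALDO1 in Direct-78 less S1-10 (-1.09), ME1 in S3-57 (-1.78) and ME1 in Direct-78 against S3-78 (1.97). Calls were gained fitting the compared groups alone for ME1 in S1-10 (-1.33). With the log2 total count as a covariate, TALDO1 was a DEG in 0 of 9 groups, and calls were lost for TALDO1 in Direct-78 less S1-10 (-0.22), ME1 in S1-32 (-1.07) and ME1 in Direct-78 against S3-78 (1.93). Signs turned with the log2 total count as a covariate for TALDO1 in Direct-78 (0.037), TALDO1 in Control-78 against Control-57 (-0.039), TALDO1 in S3-57 against S1-57 (0.13), TALDO1 in Direct-78 against S3-78 (0.20) and TALDO1 in S1-32 less S1-10 (-0.0050). With all 78 libraries, ME1 was a DEG in 1 of 9 groups, and calls were lost for ME1 in S1-32 (-1.13), ME1 in S3-57 (-2.08) and ME1 in Direct-78 against S3-78 (1.64). Signs turned with all 78 libraries for G6PDX in S3-78 (-0.26), ME1 in S2-78 (-0.33), ME1 in Direct-78 (-0.77), ME1 in Control-32 against Control-10 (0.061) and ME1 in S1-32 less S1-10 (-0.17). Without the libraries of low squared correlation, ME1 was a DEG in 6 of 9 groups, and calls were lost for TALDO1 in Direct-78 (-0.57) and TALDO1 in Direct-78 less S1-10 (-0.83). Calls were gained without the libraries of low squared correlation for TALDO1 in S3-78 (-0.68), ME1 in S1-10 (-1.30), ME1 in S1-57 (-1.46), ME1 in S1-78 (-1.25) and ME1 in Direct-78 less S1-10 (2.45). Signs turned without the libraries of low squared correlation for G6PDX in S2-78 (0.094), TALDO1 in Direct-78 against S3-78 (0.11) and ME1 in Control-57 against Control-32 (-0.058). Without the acinar libraries, a call was gained for ME1 in S1-57 (-1.41). Signs turned without the acinar libraries for G6PDX in S2-78 (0.14) and ME1 in S1-32 less S1-10 (-0.18). With all genes of at least 1 count, calls were lost for ME1 in S1-32 (-1.002). With detected genes as a covariate, calls were lost for ME1 in S1-32 (-1.004) and ME1 in Direct-78 against S3-78 (1.54). Signs turned with detected genes as a covariate for ME1 in S2-78 (-0.079), ME1 in Direct-78 (-0.40) and ME1 in S3-78 less S3-57 (0.064). Leaving out 1 library at a time, TALDO1 was a DEG in 0 to 2 groups and ME1 in 2 to 4. Calls moved in some of these fits for TALDO1 in S1-32 (0.39 to 0.76), TALDO1 in Direct-78 (-1.12 to -0.54), TALDO1 in Direct-78 less S1-10 (-1.36 to -0.78), ME1 in S1-32 (-1.42 to -1.004), ME1 in S1-57 (-1.63 to -1.002), ME1 in S3-57 (-2.04 to -1.41), ME1 in Direct-78 against S3-78 (1.03 to 2.48) and ME1 in Direct-78 less S1-10 (0.49 to 1.90). Signs moved for G6PDX in S1-78 (-0.057 to 0.65), G6PDX in S2-78 (-1.51 to 0.16), G6PDX in S3-78 (-0.29 to 0.67), G6PDX in Control-57 against Control-32 (-0.73 to 0.16), TALDO1 in Control-78 against Control-57 (-0.067 to 0.15), TALDO1 in S3-57 against S1-57 (-0.26 to 0.025), TALDO1 in Direct-78 against S3-78 (-0.46 to 0.15), ME1 in S2-78 (-0.24 to 0.46), ME1 in Direct-78 (-0.84 to 0.57), ME1 in Control-57 against Control-32 (-0.34 to 0.25), ME1 in S1-32 less S1-10 (-0.13 to 0.32) and ME1 in S3-78 less S3-57 (-0.50 to 0.17). Without mouse 64, or without the libraries of low squared correlation, Direct-78 has no count of G6PDX left, and the fitted values depend on the prior count and bound nothing. They were -6.88 and -6.92 for G6PDX in Direct-78 (up to 1.12 without other libraries), -7.13 and -7.11 against S3-78 (up to 0.86) and -6.36 and -6.44 less S1-10 (up to 1.64). Against S3-78 the sign also turned without mouse 55 of S3-78 (-0.13).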
